A study of Mus musculus with 4 samples.

Results

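The AP-2 transcription factors of the mouse are encoded by 5 genes, Tcfap2a, Tcfap2b, Tcfap2c, Tcfap2d and Tcfap2e, and histone H3 acetylation was examined at each of them in mouse embryonic stem (mES) cells. The members were taken by gene name from the GENCODE vM1 annotation of the mm9 genome (NCBIM37), and all 5 were found among the 22359 protein-coding genes with an annotated transcription start site (TSS). ChIP-seq was performed with 1 antibody against acetylated lysine 9 (H3K9ac, the Abcam rabbit polyclonal ab4441) and with 2 mouse monoclonal antibodies against acetylated lysine 14 (H3K14ac), 13HH3 and 7G8, and input DNA without antibody was sequenced beside them. The 7G8 antibody is known here from the labels alone, since the methods of the study describe 13HH3-1A5 and not 7G8. Each of these 4 libraries was made once. According to the labels, the cells of every library were untreated E14 mES cells of the 129P2/OlaHsd strain at passage 25 to 30, whereas the methods of the study describe wild type lines derived from blastocysts and taken off feeder cells before use. With 1 library per antibody the intervals below cover counting error only, and no p-value is given.

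AP-2 factors bind DNA as dimers through a conserved helix-span-helix domain and recognise GC-rich palindromes. Tcfap2a (AP-2 alpha) and Tcfap2b (AP-2 beta) are known regulators of neural crest and neural plate border, Tcfap2c (AP-2 gamma) acts in trophoblast and primordial germ cells, Tcfap2d (AP-2 delta) is known from the developing midbrain and retina, and Tcfap2e (AP-2 epsilon) from the olfactory bulb. Acetylation of H3K9 and H3K14 is usually found at active promoters. Bivalent promoters, of which the study shows Tcfap2d as an example, carry an activating and a repressive histone methylation mark together. H3K14ac on inactive promoters was one of the questions of the study.

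The CpG content of the promoters, which the study relates to acetylation, differed between the members. A promoter was taken as 250 bp before to 50 bp after the TSS, 300 bp in all, and the median promoter held 12 CpGs at 55.7% GC. That of Tcfap2d held 5 CpGs at 39.7% GC, fewer than most, since 29.9% of promoters had fewer CpGs. Tcfap2b held 12 CpGs at 38.7% GC. The 3 other promoters were richer in GC, with 13 CpGs at Tcfap2a, 17 at Tcfap2e and 20 at Tcfap2c. The Tcfap2d promoter overlapped no CpG island (at least 200 bp, 50% GC and a CpG ratio of 0.6), whereas 61.4% of all promoters did. A TSS whose promoter overlapped an island is called a TSS in an island below. This definition gave 177538 islands in the genome, whereas the study took its islands from the UCSC genome browser. Downstream of the Tcfap2d TSS lay an island of 377 bp from 160 bp and one of 1040 bp, with 51 CpGs, from 1028 bp. The upstream stretches of Tcfap2d, Tcfap2b and Tcfap2e, and the coding stretch of Tcfap2d inside that downstream island, are shown because no called peak, as described below, lay on the upstream stretches, while peaks of both H3K9ac and 13HH3 lay on the coding stretch. Each is written 5′ to 3′ on the strand of the gene, in mm9, with every CpG in capitals.
Tcfap2d, chr1:19092853-19093102, plus strand, the 250 bases before the TSS, 5 CpGs: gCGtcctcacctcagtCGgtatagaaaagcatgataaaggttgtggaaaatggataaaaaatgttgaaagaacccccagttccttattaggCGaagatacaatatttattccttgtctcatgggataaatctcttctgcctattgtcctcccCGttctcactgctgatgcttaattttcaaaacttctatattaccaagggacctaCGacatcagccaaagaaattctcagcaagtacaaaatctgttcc
Tcfap2d, chr1:19094451-19094750, plus strand, 1348 to 1647 bp after the TSS, coding exon, 17 CpGs: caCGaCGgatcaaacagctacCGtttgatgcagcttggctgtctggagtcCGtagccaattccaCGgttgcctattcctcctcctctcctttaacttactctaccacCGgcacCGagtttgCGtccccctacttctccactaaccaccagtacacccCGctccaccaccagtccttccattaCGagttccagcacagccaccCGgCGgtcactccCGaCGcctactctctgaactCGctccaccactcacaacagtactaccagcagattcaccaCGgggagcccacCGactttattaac
Tcfap2b, chr1:19198745-19198994, plus strand, the 250 bases before the TSS, 10 CpGs: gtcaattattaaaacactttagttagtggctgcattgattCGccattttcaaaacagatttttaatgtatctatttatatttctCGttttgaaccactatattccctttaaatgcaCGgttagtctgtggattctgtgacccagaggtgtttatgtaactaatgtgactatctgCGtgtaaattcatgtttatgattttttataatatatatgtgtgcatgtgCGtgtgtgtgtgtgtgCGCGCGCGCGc
Tcfap2e, chr4:126413485-126413734, minus strand, the 250 bases before the TSS, 13 CpGs: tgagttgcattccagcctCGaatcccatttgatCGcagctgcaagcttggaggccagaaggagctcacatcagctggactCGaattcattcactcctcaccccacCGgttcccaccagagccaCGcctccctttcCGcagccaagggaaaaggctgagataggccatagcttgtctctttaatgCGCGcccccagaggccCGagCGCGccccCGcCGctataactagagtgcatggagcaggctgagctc

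A palindrome used for AP-2 binding, GCCNNNGGC, which reads the same on both strands, occurred once among the 5 promoters. It lay 249 bp before the TSS of Tcfap2c, and 19% of all promoters held it. The stretch upstream of the nearest exon of that gene is shown with the match in capitals.
Tcfap2c, chr2:172376032-172376152, plus strand, 250 to 130 bp before the TSS: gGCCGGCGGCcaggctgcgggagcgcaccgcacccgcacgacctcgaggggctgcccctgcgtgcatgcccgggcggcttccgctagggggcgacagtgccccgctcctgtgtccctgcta
GGGCGG, the letters of a Sp1 box, was found once each in the promoters of Tcfap2a, Tcfap2c and Tcfap2e when both strands were searched, beside 44.5% of all promoters. TATAAA was found 2 times in that of Tcfap2b and in none of the other 4, beside 13.4% of all promoters. Both TATAAA matches lay on the strand opposite to the gene, as did the GGGCGG of Tcfap2a. No motif overlapped another in these 5 promoters. A match describes the letters and not binding.

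Before the members are described, the libraries need a remark. They held 23181544 tags for H3K9ac, 21626227 for 13HH3, 23837354 for 7G8 and 19313142 for input, so that 1 tag corresponds to a tag density, in tags per 10000000 tags of the library, of 0.42 to 0.518. The ChIP libraries and the input differed between chromosomes outside of called peaks. Relative to input, chromosome 1 (Tcfap2b and Tcfap2d) held 0.921 of the expected H3K9ac tags and chromosome 2 (Tcfap2c) 1.15, while for the sex chromosomes the corresponding H3K9ac values were 0.733 on X and 4.72 on Y. The part of this in the results was not tested, nor whether the input came from the same cells as the ChIP libraries, which bears on every ratio over input. For several values the ratio scaled by the tags outside peaks on the gene's own chromosome is given as well. Among markers, H3K9ac was above input at 8 of 8 embryonic stem cell genes (Pou5f1 2.49 and Zfp42 4.09 on the log2 scale), at 2 of 6 fibroblast genes (3 with scaling by chromosome), at 3 of 4 trophoblast genes and at 4 of 4 early germ layer genes, beside 63.7% of all protein-coding TSSs and 89.9% of those in a CpG island. Lum (-0.76), a fibroblast gene, and Elf5 (-0.11), a trophoblast gene, had intervals across 0.

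At the TSSs, H3K9ac was above input at all 5 AP-2 genes, 13HH3 at 4 and 7G8 at 1. Tags were counted within 2 kb on each side of the TSS, scaled to a tag density per 10000000 tags of the library, and a gene was called above input when the exact 95% interval of the log2 ratio over input lay above 0. The same call was made at 63.7% of all protein-coding TSSs for H3K9ac, 32.5% for 13HH3 and 31.6% for 7G8. At TSSs whose promoter overlapped a CpG island the shares were 89.9%, 44.2% and 44.6%. H3K9ac above input was thus the usual state of promoters with an island. The Tcfap2d promoter overlapped none, so the island shares do not describe it.

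Tcfap2a (chromosome 13, minus strand, TSS 40829192) had 99 H3K9ac tags, 58 13HH3 tags, 60 7G8 tags and 23 input tags, which are tag densities of 42.7, 26.8, 25.2 and 11.9. Relative to input, its log2 ratio was 1.84 for H3K9ac (1.18 to 2.56), 1.17 for 13HH3 (0.45 to 1.94) and 1.08 for 7G8 (0.36 to 1.84). With these settings it was the only member above input with every antibody. With input from the 20 kb around the TSS, Tcfap2b and Tcfap2c were so too (7G8 0.70, 0.14 to 1.23, and 0.46, 0.06 to 0.85), and with 1 kb on each side the 7G8 interval of Tcfap2a crossed 0 (-0.08 to 1.97). For 13HH3 the ratio was higher than at 88.9% of TSSs. The 13HH3 density itself exceeded that of 55.5% of TSSs, and the input density that of 18.4%.

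Tcfap2b (chromosome 1, plus strand, TSS 19198995) had 61, 54, 42 and 26 tags in the same order, or densities of 26.3, 25, 17.6 and 13.5. Its log2 ratio over input was 0.97 for H3K9ac (0.28 to 1.69) and 0.89 for 13HH3 (0.19 to 1.63), and 0.39 for 7G8 with an interval across 0 (-0.35 to 1.15).

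Tcfap2c (chromosome 2, plus strand, TSS 172376282) gave the highest ChIP tag numbers, 212 for H3K9ac, 86 for 13HH3 and 74 for 7G8, with 47 for input, or densities of 91.5, 39.8, 31 and 24.3. Its H3K9ac density exceeded that of 81.1% of TSSs. On the log2 scale over input this came to 1.91 for H3K9ac (1.45 to 2.40) and 0.71 for 13HH3 (0.18 to 1.25). For 7G8 it was 0.35 (-0.20 to 0.91).

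Tcfap2d (chromosome 1, plus strand, TSS 19093103) had the lowest H3K9ac density, with 53 H3K9ac, 58 13HH3, 46 7G8 and 22 input tags, or densities of 22.9, 26.8, 19.3 and 11.4. H3K9ac was 1.01 over input on the log2 scale (0.26 to 1.79), below the median of all TSSs. The 13HH3 ratio of 1.24 (0.50 to 2.01) was above that of 90.4% of TSSs and was the highest of the family with these settings. The 13HH3 density itself exceeded that of 55.5% of TSSs, and the input density that of 16.5%. With input from the 20 kb around the TSS the 13HH3 ratio was 0.89, below Tcfap2b (1.20) and Tcfap2a (1.05). With 1 kb on each side it was 1.08, below the 1.27 of Tcfap2a. For 7G8 the ratio was 0.76 with a lower bound of 0.00, which as a fold is 0.999, so the interval touched 0. With the scaling by chromosome it was 0.85 (0.09 to 1.66), with input from the 20 kb around the TSS 0.41 (-0.10 to 0.90) and with 1 kb on each side 0.94 (-0.31 to 2.35).

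Tcfap2e (chromosome 4, minus strand, TSS 126413484) had 157 H3K9ac, 72 13HH3, 71 7G8 and 71 input tags, or densities of 67.7, 33.3, 29.8 and 36.8. The input density was above that of 96.8% of TSSs. H3K9ac was 0.88 over input on the log2 scale (0.47 to 1.31), while 13HH3 stood at -0.14 (-0.64 to 0.35) and 7G8 at -0.30 (-0.80 to 0.19). Taking the input from the 20 kb around the TSS instead, H3K9ac was at 1.23 and the 13HH3 and 7G8 ratios were 0.20 and 0.04, both still with intervals across 0.

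**Figure D1:**
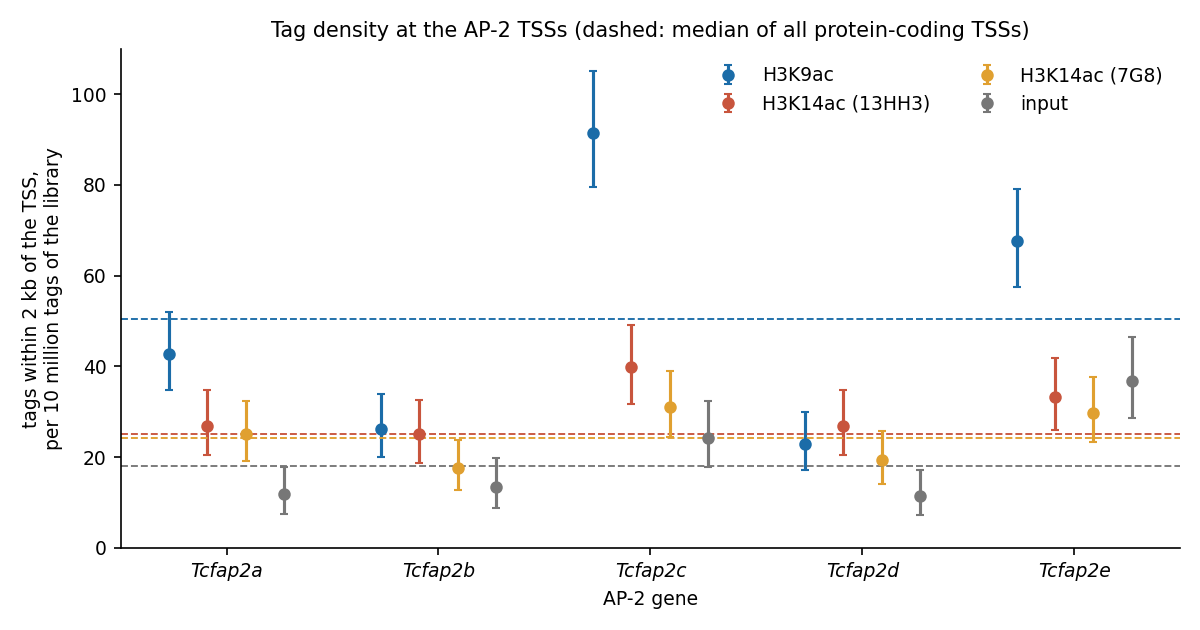
Tags within 2 kb of the TSS per 10000000 tags of the library (vertical axis) for the 5 AP-2 genes; points are the 4 libraries, bars are exact 95% Poisson intervals and dashed lines are the medians of all protein-coding TSSs. H3K9ac ranged from 22.9 at Tcfap2d to 91.5 at Tcfap2c around an overall median of 50.5, and Tcfap2e had the most input tags.

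**Figure D2:**
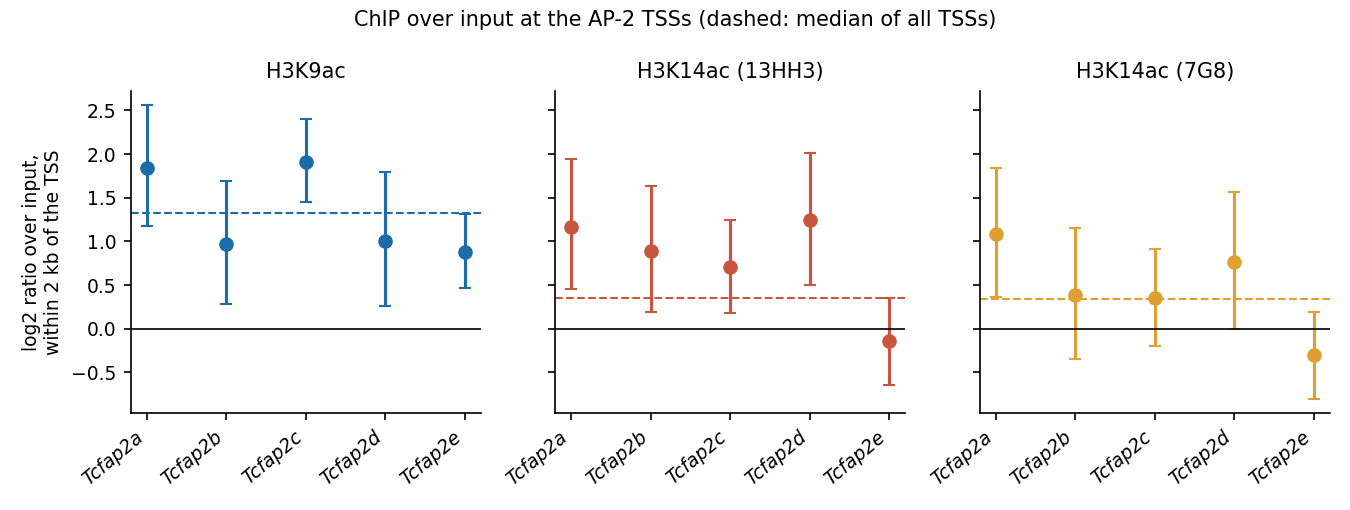
Log2 ratio over input within 2 kb of the TSS (vertical axis) for each antibody and AP-2 gene, with exact 95% intervals; the solid line is 0 and the dashed line the median of all TSSs. All 5 H3K9ac intervals, 4 of the 13HH3 intervals and 1 of the 7G8 intervals lie above 0.

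The median log2 ratio of the 5 members was 1.01 for H3K9ac, 0.89 for 13HH3 and 0.39 for 7G8. Over the 21213 TSSs with at least 10 input tags the medians were 1.32, 0.35 and 0.34, and over those in a CpG island 1.91, 0.54 and 0.54. With the scaling by chromosome the numbers of members above input were 5, 4 and 2, beside 68.0%, 37.8% and 35.5% of all TSSs. When promoters were split into 5 groups by CpG number, those with 3 to 6 CpGs, which include Tcfap2d, had median log2 ratios of 0.15 for H3K9ac and 0.15 for 13HH3, beside the 1.01 and 1.24 of Tcfap2d. Those with 17 to 25 CpGs, which include Tcfap2c and Tcfap2e, had 2.03 and 0.53.

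The members were ordered by their ratio over input, and the 10 pairs in each library were compared by the exact conditional interval of their odds ratio, without adjustment for the number of pairs. For H3K9ac the order was Tcfap2c, Tcfap2a, Tcfap2d, Tcfap2b and Tcfap2e, and no neighbours in it were separated by more than counting error. Tcfap2c exceeded Tcfap2e by 1.03 on the log2 scale (0.39 to 1.67) and Tcfap2b by 0.94 (0.07 to 1.79), the latter being 0.62 (-0.25 to 1.48) with the scaling by chromosome. Tcfap2a exceeded Tcfap2e by 0.96 (0.16 to 1.80). For 13HH3 the order was Tcfap2d, Tcfap2a, Tcfap2b, Tcfap2c and Tcfap2e. Here Tcfap2e lay below each of the 4 others, by 1.37 from Tcfap2d (0.48 to 2.30) and by 0.85 from Tcfap2c (0.11 to 1.59; 0.74, 0.00 to 1.48 with the scaling by chromosome), and no pair of the 4 others had an interval clear of 0. With 7G8 the order was Tcfap2a, Tcfap2d, Tcfap2b, Tcfap2c and Tcfap2e. Only the differences of Tcfap2a and Tcfap2d from Tcfap2e had intervals above 0, at 1.38 (0.49 to 2.29) and 1.06 (0.14 to 2.01). These orders depend on the input, which was high in the Tcfap2e window. With input from the 20 kb around the TSS, H3K9ac was lowest at Tcfap2d, with 0.66 (0.17 to 1.12) beside 1.23 (0.94 to 1.52) at Tcfap2e. With that input 13HH3 was 0.89 (0.42 to 1.34) at Tcfap2d beside 0.20 (-0.19 to 0.58) at Tcfap2e, and 7G8 was 0.41 at Tcfap2d beside 0.04 at Tcfap2e. The differences between members were not tested with that input.

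Where the tags lay was then read from 500 bp bins over 10 kb on either side of the TSS and from peaks. Peaks were called in 400 bp windows against a local Poisson rate from input. At 1e-05, the threshold used, this gave 76908 H3K9ac, 47425 13HH3 and 25167 7G8 peaks in the genome, and at 1e-10 6585 13HH3 peaks. The study, which used MACS, lists fewer H3K9ac and H3K14ac peaks than were called here at 1e-05. Its H3K14ac number is nearer to that of 13HH3 at 1e-10. All 5 members had an H3K9ac peak within 2 kb of the TSS, 4 had a 13HH3 peak (all but Tcfap2e) and none had a 7G8 peak, beside 65.0%, 28.2% and 25.0% of all TSSs. These counts depend on the threshold and window, since at a probability of 1e-10 H3K9ac peaks were left at 3 members and 13HH3 peaks at 0, at 1e-03 7G8 peaks were found at 3, and within 1 kb of the TSS 1 member had a 13HH3 peak. Of the TSSs used here, a peak spanned that of Tcfap2c only. At Tcfap2b, Tcfap2d and Tcfap2e the peaks of this window lay downstream, and Tcfap2a had them on either side. In the 1 kb centred on the TSS, Tcfap2b had 9 H3K9ac tags against 6 in input, and Tcfap2d had 8 against 3, with intervals across 0 in both, although the 13 13HH3 tags of Tcfap2d gave 1.95 (0.09 to 4.40). The corresponding counts were 93 against 20 for Tcfap2c, 43 against 18 for Tcfap2e and 26 against 6 for Tcfap2a, each with an interval above 0. With 1 kb counted on each side, H3K9ac was no longer called at Tcfap2b (0.57, -0.43 to 1.63) and Tcfap2d (0.64, -0.69 to 2.09), nor 13HH3 at Tcfap2d (1.08) and Tcfap2b (-0.06), nor 7G8 at Tcfap2a (0.90).

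Tcfap2d had its called peaks in 1 place. The H3K9ac peak spanned 1148 to 1897 bp after the TSS (chr1:19094251-19095000, 31 tags against 8 in input, log2 1.69, 0.54 to 3.02) and the 13HH3 peak 1248 to 1747 bp (20 against 7, log2 1.35, 0.05 to 2.84). Both fell in the 1040 bp island, and the coding stretch printed above lies in both. Over the whole island the tag densities per kb were 14.9 for H3K9ac, 12.9 for 13HH3, 8.07 for 7G8 and 3.98 for input. The log2 ratios over input there were 1.91 (0.78 to 3.22), 1.69 (0.53 to 3.03) and, for 7G8, 1.02 (-0.23 to 2.41). The bin with the most tags was the same for the 3 antibodies, 1000 to 1499 bp after the TSS, with 19 H3K9ac, 16 13HH3 and 12 7G8 tags against 4 in input. Without the shift of tag ends the fullest 13HH3 bin began at 1500 bp, and with the bins moved by 250 bp the fullest bins began at 1250 bp for H3K9ac and 13HH3 and at 750 bp for 7G8. The 3 bins from 2000 to 501 bp before the TSS held 2, 0 and 0 H3K9ac tags, 8, 1 and 4 13HH3 tags and 6, 0 and 3 7G8 tags, beside 1, 5 and 0 input tags. The amplicon used for ChIP-qPCR of this gene in the study mapped to chr1:19094378-19094522, inside the island and both peaks. In the 1 kb around it were 40 H3K9ac, 30 13HH3, 26 7G8 and 10 input tags, with log2 ratios of 1.74 (0.71 to 2.90), 1.42 (0.35 to 2.62) and 1.07 (-0.02 to 2.29). A processed transcript on the opposite strand, Gm15825, starts 1818 bp after the Tcfap2d TSS and so within the H3K9ac peak, with 28, 24 and 18 ChIP tags and 8 input tags in the 1 kb around its start. ChIP tags carry no strand of transcription, so the start of Gm15825 and the coding exon of Tcfap2d cannot be told apart.

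Tcfap2b, on the same chromosome and strand as Tcfap2d, also had its peaks downstream, in more places. Its H3K9ac peak nearest the TSS spanned 706 to 1305 bp after it (25 tags against 6) and its 13HH3 peak 1306 to 1755 bp (17 against 8, log2 0.92, -0.37 to 2.35), side by side and not overlapping. The tags themselves were not separated in this way. H3K9ac and 13HH3 had 19 and 21 tags at 1000 to 1499 bp and 11 each at 1500 to 1999 bp. The island between 761 and 1656 bp held 32 H3K9ac, 31 13HH3, 17 7G8 and 14 input tags. The 13HH3 bin with the most tags lay at 1000 to 1499 bp (21 tags) and that of H3K9ac at 5000 to 5499 bp (21 tags), over a further island of 964 bp. Near the 3′ end, an H3K9ac peak 24856 to 25505 bp after the TSS, centred on a coding exon, held 23 tags against 3 and overlapped one of 13HH3 (16 against 3). With the bins moved by 250 bp the fullest H3K9ac bin began at 750 bp. For 7G8, 13 tags against 2 lay 8500 to 8001 bp before the TSS and 12 against 5 at 1000 to 1499 bp after it.

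**Figure D3:**
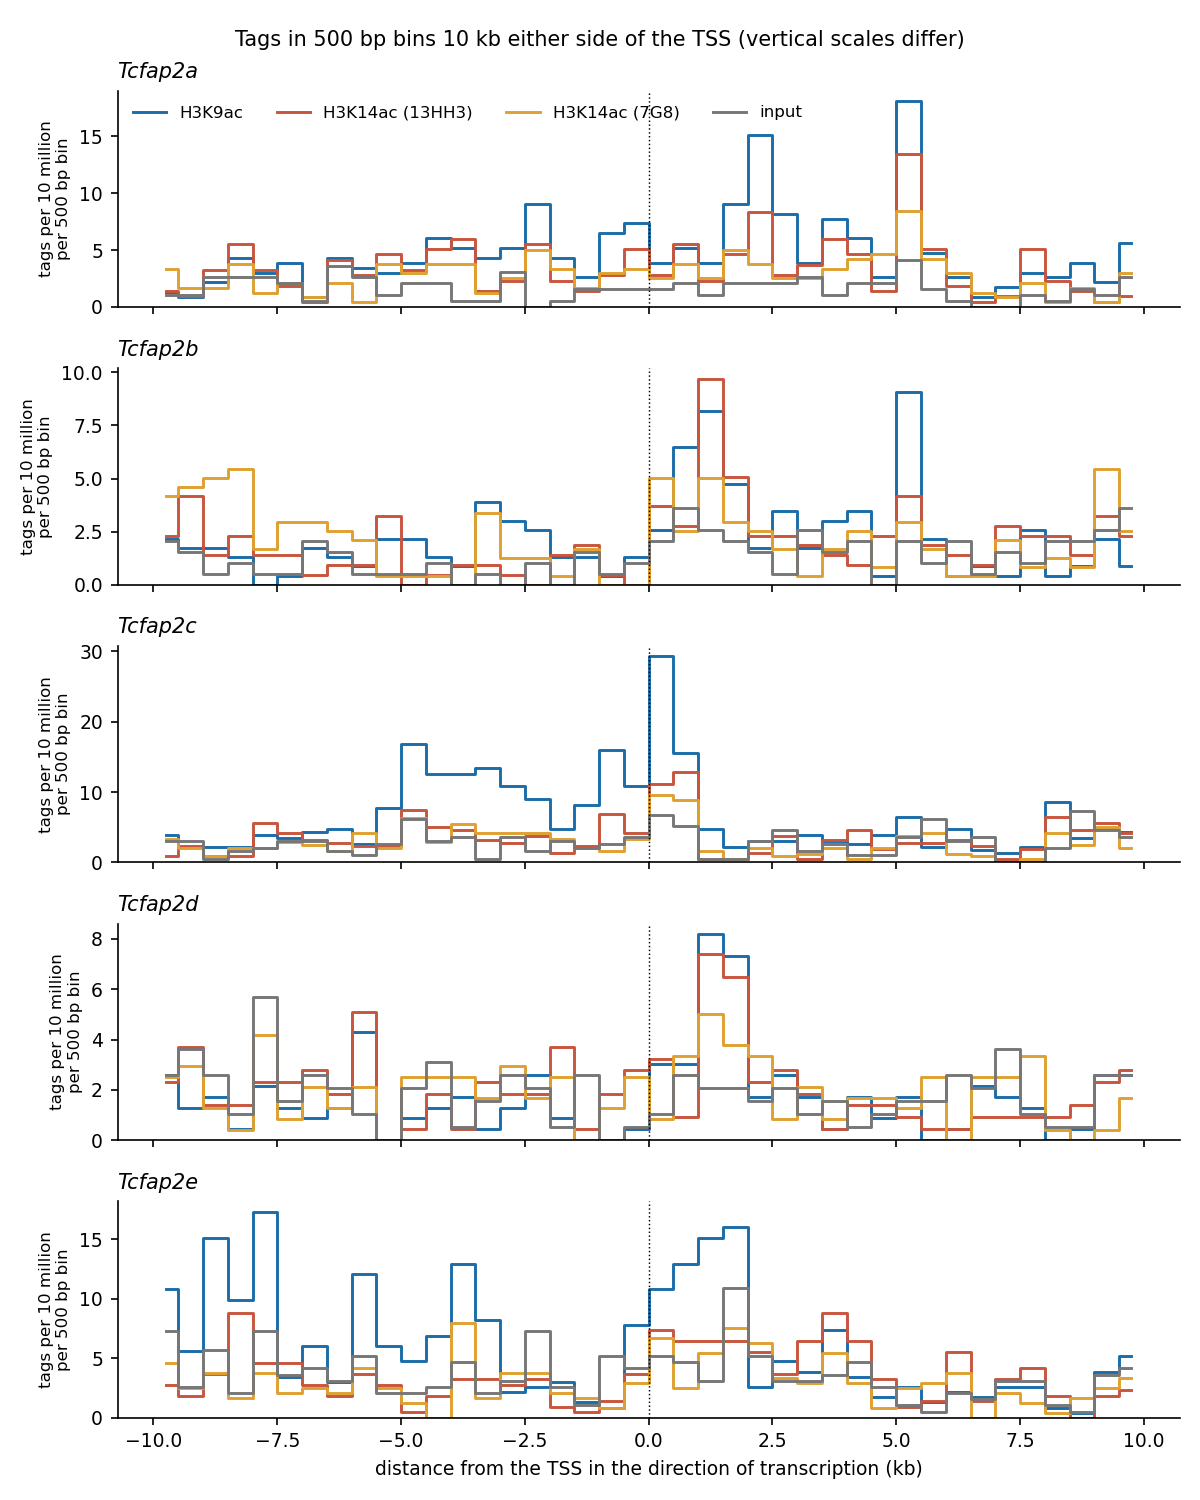
Tag density in 500 bp bins, per 10000000 tags of the library (vertical axis, scales differ between genes) against the distance from the TSS in kb, for the 4 libraries at each AP-2 gene. At Tcfap2d the 3 ChIP lines rise together between 1 and 2 kb after the TSS, and at Tcfap2c the H3K9ac line stands above the others from about 5 kb before to about 2 kb after the TSS.

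Tcfap2c had the widest single H3K9ac peaks. A peak of 2400 bp spanned the TSS from 1231 bp before to 1168 bp after it (176 tags against 35, log2 2.07, 1.54 to 2.63) inside a 2903 bp island with 222 CpGs. A peak of 3150 bp lay upstream, from 5281 to 2132 bp before the TSS (184 against 38, log2 2.01), and no peak of either H3K14ac antibody overlapped it. The 13HH3 peak of this gene was confined to 469 to 1068 bp after the TSS (28 against 10). The fullest H3K9ac bin began at the TSS itself, with 68 tags against 13. Several transcripts of Tcfap2c start over 2523 bp, and the 1 kb windows around their starts gave H3K9ac log2 ratios over input of 1.68 to 2.54, each with its interval above 0.

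Tcfap2a had the most peaks, 11 for H3K9ac, 6 for 13HH3 and 3 for 7G8 over the gene and its flanks. It was the only member with 7G8 peaks, at 4208 to 3809 bp before and at 3842 to 4241 and 5192 to 5691 bp after the TSS, and each of the 3 overlapped a peak of both other antibodies. At 3842 to 4241 bp the 7G8 peak held 15 tags against 5, with an interval across 0 (log2 1.28, -0.25 to 3.10). The H3K9ac peak that it overlapped also had an interval across 0 (1.64, -0.01 to 3.69). A further protein-coding transcript of Tcfap2a starts 3405 bp after the TSS used here. In the 1 kb around that start the log2 ratios over input were 1.74 for H3K9ac (0.51 to 3.18), 1.42 for 13HH3 (0.13 to 2.90) and 0.21 for 7G8 (-1.33 to 1.84). An H3K9ac peak from 3342 to 3741 bp, with 16 tags against 0, spanned it. The 7G8 peak at 5192 to 5691 bp is centred on a coding exon and overlaps an island with 46 CpGs. It also lies inside the record of a lincRNA on the opposite strand, Gm16989, described below. There the H3K9ac peak held 49 tags against 9, the 13HH3 peak 36 against 9 and the 7G8 peak 21 against 3. All 3 ChIP libraries had their fullest bin there, 5000 to 5499 bp after the TSS, with 42, 29 and 20 tags against 8 in input. This was also the fullest input bin, beside an input median of 3 tags per bin, and the 7G8 ratio in it was 1.02 (-0.23 to 2.41). The fullest H3K9ac bin began at 1750 bp with the bins moved by 250 bp and at 2000 bp without the shift of tag ends. The middle of the shared peak is shown because the called peaks of all 3 antibodies overlap there, again with CpGs in capitals.
Tcfap2a, chr13:40823601-40823900, minus strand, 5292 to 5591 bp after the TSS, 190 of 300 bases coding and 110 outside exons, 22 CpGs: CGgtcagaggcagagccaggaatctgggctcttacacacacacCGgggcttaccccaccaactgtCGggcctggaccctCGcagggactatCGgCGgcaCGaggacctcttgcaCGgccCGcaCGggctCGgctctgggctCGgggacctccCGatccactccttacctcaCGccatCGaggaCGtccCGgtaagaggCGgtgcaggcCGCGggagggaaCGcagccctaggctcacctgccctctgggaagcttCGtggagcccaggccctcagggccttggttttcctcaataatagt
The widest H3K9ac peak of Tcfap2a, 2150 bp from 9642 to 11791 bp after the TSS (105 tags against 11, log2 2.99, 2.09 to 4.04), overlapped no 13HH3 or 7G8 peak. In the 870 bp island inside it, H3K9ac had 53 tags and 13HH3 13, against 5 in input. The lincRNA Gm16989 starts 6015 bp after the Tcfap2a TSS and had 17, 13, 18 and 4 tags in the 1 kb around its start. The H3K9ac, 13HH3 and 7G8 peaks over the stretch printed above lie inside its record, on the transcribed side of that start. There Gm16989 and the coding exon of Tcfap2a cannot be told apart, since ChIP tags carry no strand of transcription.

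Tcfap2e had H3K9ac peaks only, and none of 13HH3 or 7G8 over the gene and its flanks. A pair of H3K9ac peaks lay 434 to 883 bp (29 tags against 9) and 934 to 1783 bp (66 against 23) after the TSS, over islands. In the island at the TSS, 1593 bp with 140 CpGs, H3K9ac was 1.37 over input on the log2 scale (0.73 to 2.06), whereas 13HH3 was 0.33 (-0.42 to 1.10) and 7G8 -0.10 (-0.90 to 0.70). A further 4 H3K9ac peaks lay 9166 to 3317 bp upstream, with 32 to 56 tags each. The fullest H3K9ac bin, 8000 to 7501 bp before the TSS (40 tags against 14), overlaps the record of Ncdn, a neuronal gene on the same strand whose own start lies 17198 bp upstream of that of Tcfap2e. The fullest 13HH3 bin, 8500 to 8001 bp before the TSS, had 19 tags against 4 without a called peak. With the bins moved by 250 bp, the fullest bins began 1250 bp after the TSS for H3K9ac and 3250 bp after it for 13HH3. The fullest input bin of this gene, 1500 to 1999 bp after the TSS, held 21 tags, beside a median of 6 over its 40 bins.

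**Figure D4:**
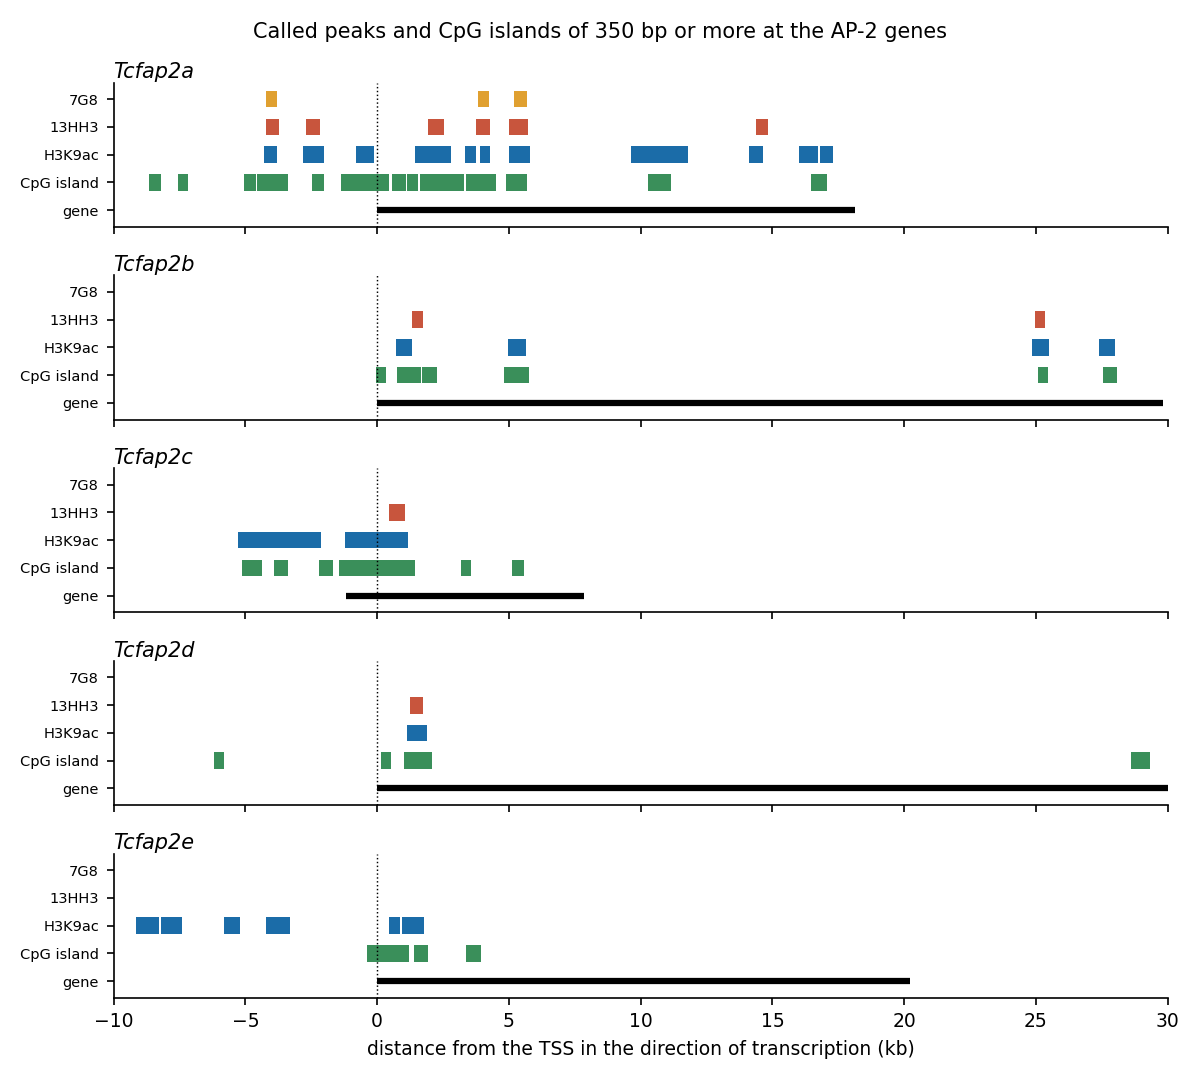
Called peaks of the 3 antibodies, CpG islands of at least 350 bp and the gene record (rows) against the distance from the TSS in kb, cut at 30 kb, for the 5 AP-2 genes. Tcfap2a has 7G8 peaks at 3 places, Tcfap2d has 1 peak each of H3K9ac and 13HH3 over a downstream island, and Tcfap2e has H3K9ac peaks alone.

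The balance of the marks also varied among the members. The log2 ratio of 13HH3 to H3K9ac density within 2 kb of the TSS was 0.23 at Tcfap2d (-0.33 to 0.80) and -0.08 at Tcfap2b (-0.63 to 0.48), both with intervals above the median of -0.93 over 21207 TSSs. Tcfap2d had a higher ratio than 83.8% and Tcfap2b than 76.1% of TSSs. At Tcfap2a it was -0.67 (-1.16 to -0.19), at Tcfap2e -1.02 (-1.45 to -0.61) and at Tcfap2c -1.20 (-1.58 to -0.83), intervals that include that median. Outside peaks on chromosome 1, where both genes lie, log2 ratios over input were -0.40 for H3K9ac and -0.17 for 13HH3. The balance there was on the side of 13HH3, as it was outside peaks over all chromosomes (-0.28 and -0.11) and on chromosome 13 of Tcfap2a (-0.15 and 0.08). With the scaling by chromosome Tcfap2d came to 0.00 (-0.56 to 0.57), level with the tags outside peaks on chromosome 1, and Tcfap2b to -0.30 (-0.86 to 0.25). The other members were lowered too, Tcfap2a to -0.90 (-1.40 to -0.42), Tcfap2e to -1.15 (-1.57 to -0.74) and Tcfap2c to -1.35 (-1.73 to -0.98). The part of the chromosomes in this balance was not tested. With 1 kb on each side Tcfap2b was at -0.64 (-1.67 to 0.34). Promoters with 3 to 6 CpGs, the group of Tcfap2d, had the same median over input for both marks, 0.15. Tcfap2b and Tcfap2d had the fewest H3K9ac tags of the family, 61 and 53, and 54 and 58 13HH3 tags, within or just under the 58 to 86 of the other members. The 2 H3K14ac antibodies gave ratios of 13HH3 to 7G8 from 0.09 at Tcfap2a to 0.50 at Tcfap2b, all on the side of 13HH3 and all with intervals across 0, beside a median of 0.02. With 1 kb on each side the ratio was 0.58 (0.06 to 1.11) at Tcfap2c and -0.12 at Tcfap2b.

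**Figure D5:**
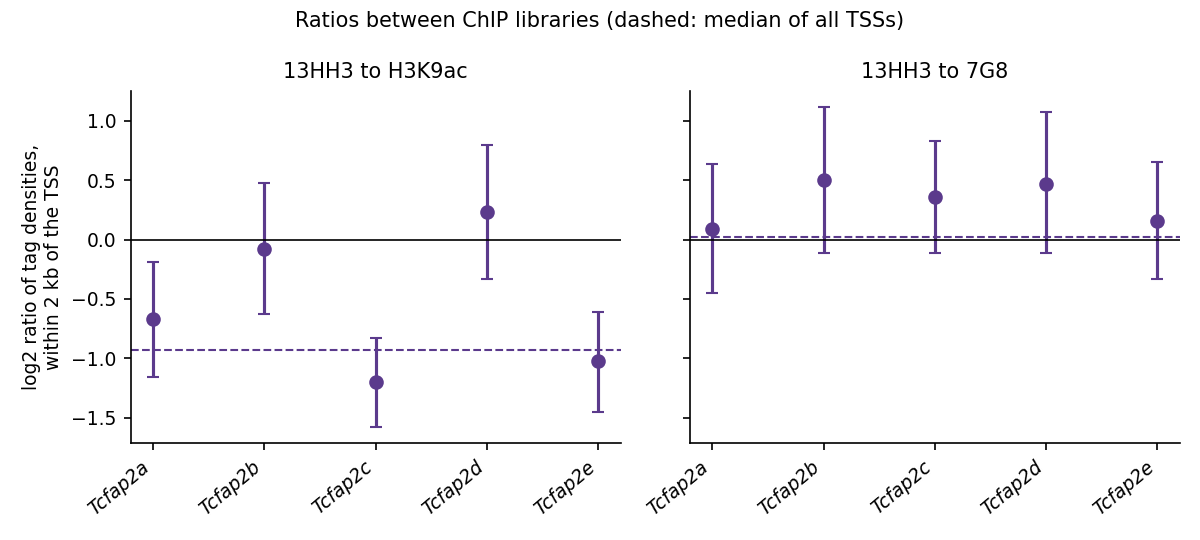
Log2 ratios between ChIP libraries within 2 kb of the TSS (vertical axis), 13HH3 to H3K9ac on the left and 13HH3 to 7G8 on the right, with exact 95% intervals; dashed lines are medians of all TSSs. On the left the intervals of Tcfap2b and Tcfap2d lie above the median of -0.93.

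Over the gene bodies, the ratios were highest at Tcfap2a. Its 18149 bp had tag densities per kb of 11.5 for H3K9ac, 6.83 for 13HH3, 5.71 for 7G8 and 2.91 for input, and the log2 ratios over input were 1.98 (1.67 to 2.30), 1.23 (0.90 to 1.57) and 0.97 (0.63 to 1.32). In the 9030 bp of Tcfap2c, H3K9ac was 1.25 over input (0.91 to 1.61). In the part of that record beyond 2 kb after the TSS, H3K9ac was only 0.30 (-0.20 to 0.80) and 7G8 lay below input (-0.69, -1.29 to -0.11). Tcfap2b was at 0.51 with H3K9ac (0.24 to 0.78) and at 0.51 with 13HH3 (0.24 to 0.79). The 63325 bp of Tcfap2d lay below input for H3K9ac (-0.47, -0.70 to -0.25) and for 13HH3 (-0.33, -0.55 to -0.10), but with the scaling by chromosome these were -0.08 (-0.30 to 0.15) and -0.16 (-0.39 to 0.06). For 7G8 it was at 0.12 (-0.09 to 0.32), and at 0.21 (0.01 to 0.41) with that scaling. At Tcfap2e H3K9ac was 0.07 (-0.15 to 0.30; 0.23, 0.01 to 0.46 with that scaling; -0.29, -0.55 to -0.03 without the first 2 kb after the TSS), 13HH3 -0.01 (-0.24 to 0.23) and 7G8 -0.35 (-0.59 to -0.11). One island of 717 bp in Tcfap2d, 28608 to 29324 bp after its TSS, had no tag in any of the 4 libraries, input included.

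The partners of AP-2 were examined as a list of 10 genes. All 8 coactivators and binding partners, among them the Cited proteins and the acetyltransferases Ep300 and Crebbp, were above input for H3K9ac, 4 for 13HH3 and 6 for 7G8, beside 63.7%, 32.5% and 31.6% of all TSSs and 89.9%, 44.2% and 44.6% of those in an island, as all 8 were. With the scaling by chromosome the numbers were 8, 7 and 6, beside 68.0%, 37.8% and 35.5% of all TSSs. Their median log2 ratios were 2.30, 0.75 and 0.98, beside the 1.32, 0.35 and 0.34 of all TSSs and the 1.91, 0.54 and 0.54 of TSSs in an island. By library totals the lowest H3K9ac ratio was that of Cited1, a coactivator that binds Ep300 and Crebbp, at 0.80 (0.29 to 1.32). Cited1 lies on the X chromosome and was below input with 7G8 (-0.72), as were 5.07% of all TSSs. With the scaling by chromosome it was 1.52 for H3K9ac (1.01 to 2.05) and -0.26 for 7G8 (-0.93 to 0.39), and Cited4, at 1.30 for H3K9ac, was then the lowest of the list. Both inhibitors of AP-2 activity in the list, the BTB-domain proteins Kctd1 and Kctd15, were above input with all 3 antibodies, with H3K9ac ratios of 1.95 and 2.68.

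Genes of the lineages in which AP-2 factors act were counted in the same way, and 9 of 10, 5 of 6 and 5 of 6 genes of the 3 lists had an island promoter. Of 10 neural crest and neural plate border genes, 10 were above input for H3K9ac, 3 for 13HH3 and none for 7G8, with median log2 ratios of 1.06, 0.39 and -0.07. Of 6 trophoblast genes the numbers were 5, 3 and 2, and of 6 primordial germ cell genes 6, 2 and 2. These counts stand beside 89.9%, 44.2% and 44.6% of all TSSs in an island and 63.7%, 32.5% and 31.6% of all TSSs. With the scaling by chromosome, 1 more trophoblast gene, Hand1, was above input for 13HH3, and no other of these counts moved. By library totals the highest H3K9ac ratios of these lists were those of Eomes, a T-box regulator of trophoblast and mesoderm, at 2.09 (1.64 to 2.58) and of Gata3, a trophoblast regulator, at 2.09 (1.56 to 2.67). With the scaling by chromosome Eomes was at 2.49, and Gata3, at 2.17, lay just below Prdm1 of the germ cell list, at 2.19. The lowest H3K9ac ratio was that of Elf5, a trophoblast regulator, at -0.11 (-0.59 to 0.38). The H3K9ac medians were 1.06 for the neural crest list, 1.20 for the trophoblast list and 1.74 for the germ cell list, beside 1.01 for the AP-2 genes, 1.32 for all TSSs and 1.91 for those in an island.

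The genes most like each member were taken as those nearest to it in the 3 log2 ratios over input (Euclidean distance, 21207 genes, 1 library per antibody). For Tcfap2d they were Hk3 (distance 0.0571), a hexokinase, and Prdx6b (0.0693), for Tcfap2a Unc5cl (0.0541) and Penk (0.0722), the enkephalin precursor. Tcfap2b was nearest to Oaf (0.0456) and 5330437I02Rik (0.0518), and Tcfap2c to Cyhr1 (0.0202) and Kif9 (0.0545), a kinesin. For Tcfap2e they were Kcnk4 (0.021), a potassium channel, and Msx1 (0.0548), a homeobox gene of the neural plate border. Within a distance of 0.25 there were 33 genes around Tcfap2d, 64 around Tcfap2a, 110 around Tcfap2b, 183 around Tcfap2e and 291 around Tcfap2c. These distances rest on the scaling by library totals and were not computed with the scaling by chromosome. Outside peaks, log2 ratios over input were -0.61, -0.50 and -0.53 on chromosome 17 (Unc5cl). They were -0.15, 0.08 and 0.14 on chromosome 13 (Tcfap2a and Hk3) and -0.40, -0.17 and -0.09 on chromosome 1 (Tcfap2d). The genes named can therefore differ with that scaling.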

How the data were processed

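ChIP-seq with 3 antibodies and an input was analysed, 1 library each. According to the methods of the study, the authors isolated fragments of 150 to 350 bp and mapped the reads with ELAND to mm9, allowing 1 mismatch. The deposited files give the position and strand of each mapped 36 bp tag, and their score column, which the authors set to 1 in every line, was not used. Mitochondrial tags were left out. For 13HH3, 738619 repeated tags (3.3%) were removed, leaving 1 tag per position and strand as in the other deposited files. Tag ends were moved by 100 bp towards the fragment middle and counted within 2 kb of the TSS of the protein-coding transcript with the longest coding sequence (GENCODE vM1), over the gene record and in 500 bp bins. No score threshold, pseudocount or test across genes was used. Ratios carry Clopper-Pearson 95% intervals scaled by library totals, and levels carry exact Poisson intervals, which cover counting error only. Peaks were windows of 400 bp in steps of 50 bp with a Poisson probability of at most 1e-05 against the highest of the genomic and local input rates. Calculations were made in Python 3.11.15 with numpy 2.4.6 and scipy 1.17.1, after tests on simulated data. The members and gene lists were chosen with earlier results of these data known. The named genes were the 5 members, the highest and lowest H3K9ac ratio of the partner and of the lineage list, the 2 genes nearest to each member with at least 10 input tags, and genes starting within 10 kb of a member. One gene that this rule names is not reported here. Cited4, Gata3, Hand1, Kctd1, Kctd15, Ncdn, Prdm1 and the markers named were added after their values were seen. A comparison of the AP-2 proteins was not made here. Alternatives concerned the window, scaling, repeats, shift, TSS, input, thresholds and bins. Sequences were read from NCBIM37, the build of the files.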

Additional observations from a re-analysis of the deposited data

How the results depend on the processing

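The limits are those of 1 library per antibody and of 22 to 71 input tags per TSS window. With 1 kb on each side, 3 members remained above input for H3K9ac, 2 for 13HH3 and 0 for 7G8, and 1 kept a 13HH3 peak. Tcfap2b then had a 13HH3 ratio over input of -0.06 and a 13HH3 to 7G8 ratio of -0.12. A log2 ratio of at least 1 was reached by 3 members for H3K9ac and 2 for 13HH3. For 7G8 the number above input was 2 when scaled by tags outside peaks, 2 when scaled within the chromosome (an alternative chosen after seeing the data) and 3 (Tcfap2a, Tcfap2b and Tcfap2c) with input from the 20 kb around the TSS. That input also turned Tcfap2e to 0.20 for 13HH3 and 0.04 for 7G8. By library totals, tags outside peaks had log2 ratios over input of -0.28, -0.11 and -0.07, and scaling by these tags raises each ratio over input by the size of that value. At a peak threshold of 1e-10, H3K9ac peaks were left at 3 members and 13HH3 peaks at 0, and at 1e-03, 7G8 peaks appeared at 3. Over the part of the gene bodies beyond 2 kb after the TSS, Tcfap2c was at -0.16 for 13HH3 and Tcfap2e at -0.29 for H3K9ac. The 13HH3 ratio of the Tcfap2e body became 0.10 with tags outside peaks, 0.03 within the chromosome and 0.01 with repeats kept. The cause was not tested. Of the alternative values of ratios over input at the TSS, 94 kept direction and call, 4 gained and 4 lost the call in the same direction, and 3 reversed, of which Tcfap2b for 13HH3 also lost its call. Part of the 94 could not have changed and says nothing on stability. Keeping repeated tags alters 13HH3 only, and taking the TSS from the gene record moves it at Tcfap2c only. The fullest bin moved by more than 250 bp in 11 cases and by at most 250 bp in 19. No paired analysis was possible because each group has 1 library.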
